A study of Mus musculus with 108 samples.

Results

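Fragments of open chromatin that switched on a fluorescent reporter in late hemogenic endothelium (HE2) were compared with those that did so in hematopoietic progenitors (HP), the blood cells that arise from it. Of the 95 sorted libraries among the 108 samples of the series, 28 were YFP-positive libraries of these stages, 14 from each. They were sorted as Low, Medium and High in replicates 1 to 4 and as Low and Medium/High in replicate 5, and were united into 1 positive set per stage and replicate, which gave 5 HE2 sets and 5 HP sets. The 10 Negative libraries, 5 from each stage, held fragments recovered from cells sorted for lack of YFP. Some of these fragments were listed in positive libraries too. The Low and Negative libraries of HE2 replicate 4 shared 48.8% of the smaller list. A Negative listing therefore does not show that a fragment was silent.

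In the assay, Tn5-cut open chromatin from 5 stages (ES cells, hemangioblast or HB, early hemogenic endothelium or HE1, HE2 and HP) was cloned in front of the HSP68 minimal promoter and a Venus-YFP gene. The recipient was HM-1, a mouse embryonic stem cell line whose Hprt gene is broken until a cassette lands in it and repairs it. The cells were then differentiated in serum culture, and HE2 was sorted as KIT+ TIE2+ CD41+ and HP as KIT+ TIE2- CD41+. All groups therefore shared the cell line, the vector, the integration site and the culture. A set is a list of distinct genomic fragments recovered by PCR, with no read number behind a fragment. The lists hold inserted DNA and not RNA, so that the identity of the sorted cells could not be checked by marker expression, and whether replicates were separate differentiations is not stated in the labels. The p-values measure the spread between these sets.

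Hemogenic endothelium is a vessel-lining tissue that turns into blood. As it does so, cells shut down endothelial genes and switch on blood genes under RUNX1, a transcription factor without which the transition fails, and its target GFI1, which represses endothelial genes. In the endothelium itself, TEAD factors (the DNA-binding partners of the Hippo pathway proteins YAP and TAZ), AP-1 (FOS and JUN dimers) and SOX proteins of the SOXF group act at many enhancers, while ETS, GATA and RUNX factors act on both sides of the transition.

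Of the distal sites that were listed in HE2 positive sets and in no HP list of any gate, 3 are printed here because 1 fragment of each carries the letters searched for as TEAD (GGAATG), AP-1 (TGANTCA) and SOX (ACAATG) motifs, the 3 motifs whose share differed between the stages. Capitals mark the matches on either strand. A distal site is a stretch of overlapping distal fragments, and distal is the name the deposited lists give to fragments more than 1.5 kb from a start of transcription. Of all listed distal fragments, 6.77% lay within that distance of a protein-coding start of the annotation used here. The fragments are given in mm10 on the plus strand, in an intergenic stretch 1924 bp from the nearest start (Cttnbp2nl, chr3:105054978-105055248), in an intron of Tmem205 (chr9:21924112-21924352) and in an intron of Nek6, a mitotic kinase (chr2:38546342-38546574). In the last of them the AP-1 and SOX matches overlap, in TGACTCATTGT. The 3 sites were chosen after their values were seen.
Cttnbp2nl fragment: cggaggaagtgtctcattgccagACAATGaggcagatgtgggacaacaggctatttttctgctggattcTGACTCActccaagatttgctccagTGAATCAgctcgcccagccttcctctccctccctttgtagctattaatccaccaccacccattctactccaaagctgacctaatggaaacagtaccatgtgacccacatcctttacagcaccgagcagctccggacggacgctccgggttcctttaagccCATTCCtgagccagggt
Tmem205 fragment: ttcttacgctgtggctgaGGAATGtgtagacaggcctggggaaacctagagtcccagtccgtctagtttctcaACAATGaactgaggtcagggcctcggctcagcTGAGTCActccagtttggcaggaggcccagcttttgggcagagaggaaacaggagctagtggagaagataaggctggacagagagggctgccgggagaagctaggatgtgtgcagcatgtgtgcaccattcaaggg
Nek6 fragment: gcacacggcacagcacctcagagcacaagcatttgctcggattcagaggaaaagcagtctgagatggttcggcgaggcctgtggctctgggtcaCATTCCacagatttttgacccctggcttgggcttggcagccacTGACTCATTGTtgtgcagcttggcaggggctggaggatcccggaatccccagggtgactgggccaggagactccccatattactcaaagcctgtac

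The site near Cttnbp2nl held 18, 9, 1, 0 and 1 fragments in HE2 positive replicates 1 to 5 and 0 in each of the 5 HP positive sets. The site in Tmem205 held 9, 12, 1, 0 and 1 and the site in Nek6 6, 2, 2, 2 and 0, again with 0 in every HP set. At each site most HE2 positive fragments came from replicates 1 and 2, where the sets were largest, and the HE2 and HP sets overlapped at 0. These counts are of all fragments of a site, and each printed fragment itself was in 1 HE2 positive library. The most listed fragment near Cttnbp2nl, in 2 such libraries, held no TEAD match. HE2 Negative sets held the sites too, with 3 and 5 fragments near Cttnbp2nl (replicates 1 and 2), 3 in Tmem205 (replicate 1) and 2, 1 and 1 in Nek6 (replicates 2 to 4). At the site near Cttnbp2nl the reporter vector list cloned from HP chromatin held 4 fragments and that from HE2 chromatin 27. Over all sorted libraries of a stage this site held 52 fragments in HE1 and 0 in HB.

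The sets differed in size far more than most sites could differ between stages. In replicates 1 and 2 a positive set held 22017 to 71032 distal and 44580 to 131939 promoter fragments, and in replicates 3 to 5 it held 503 to 5397 distal and 1049 to 11272 promoter fragments. Negative sets held 11172 to 12553 distal fragments in replicates 1 and 2 and 200 to 2387 in replicates 3 to 5. Within a replicate number the larger set was drawn down to the smaller, and values are given per 10000 fragments of a set, at which 1 fragment was worth 0.141 in the HE2 positive set of replicate 1 and 19.9 in that of replicate 5. Some libraries shared many fragments, up to 49.3% of the smaller of a pair within replicate 4, and the HP Low library of replicate 2 shared 35.0% with the HP Medium library of replicate 1, so that the sets were not fully independent.

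Motif content of the distal fragments was the measure that separated the stages. The TEAD motif was found in 11.6% ± 0.75 (SD, n = 5) of HE2 positive distal fragments and in 9.47% ± 0.37 (n = 5) of HP ones. The AP-1 motif fell from 10.7% ± 1.01 to 8.22% ± 0.525 and the SOX motif from 10.3% ± 1.65 to 7.18% ± 0.432. Each of the 3 was lower in HP in 5 of 5 replicates and gave an exact two-sided permutation p of 0.0079, the smallest that 5 against 5 sets allow, and an adjusted p of 0.0265 over the 10 motifs. These were 3 of 10 motifs tested (percent called 30).

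For TEAD the HE2 sets of replicates 1 to 5 stood at 11.3%, 11.2%, 12.7%, 11.9% and 10.7%, and the HP sets at 9.72%, 9.22%, 9.52%, 8.99% and 9.90%. For AP-1 the HE2 sets stood at 11.6%, 10.7%, 11.8%, 10.2% and 9.34%, against 8.59%, 8.21%, 7.61%, 8.87% and 7.80%. For SOX they stood at 9.98%, 9.32%, 10.8%, 12.9% and 8.55%, against 7.38%, 6.71%, 6.73%, 7.65% and 7.43%. For none of the 3 did an HP set reach the lowest HE2 set, in the 2 large replicates as in the 3 small ones.

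The other 7 motifs, among them those of blood regulators, did not pass the test. The RUNX motif (TGTGGT) was in 16% of HE2 and 16.1% of HP positive fragments (exact permutation p = 0.921, n = 5). The ETS motif (GGAAGT) was in 19.8% and 18.8% and the GATA motif (AGATAA) in 10.2% and 9.82%. The E-box bound by TAL1 and related factors (CAGCTG) was in 17.3% and 16.1%, the KLF/SP motif (GGGCGG) in 16.7% and 17.4%, the NRF1 motif (GCATGCG) in 1.38% and 1.04%, and the CTCF motif (AGGGGGC) in 8.98% and 9.69%. For each of these 7 motifs the HE2 and HP sets overlapped.

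In the means of the Negative lists only part of the difference was seen. The SOX motif was lower in HP there too, at 10.4% ± 1.18 in HE2 and 7.69% ± 0.847 in HP (exact permutation p = 0.0079, adjusted p = 0.0794, n = 5, lower in 5 of 5 replicates). The AP-1 share was 10.1% and 9.23% (exact permutation p = 0.0952, adjusted 0.476) and the TEAD share 10.6% and 11.6% (exact permutation p = 0.595). The TEAD mean of the HP Negative sets was raised by replicate 3, a set at 16.3%, and without that replicate the difference was -0.45 percentage points. The positive difference minus the Negative difference was -3.09 percentage points for TEAD, -1.67 for AP-1 and -0.36 for SOX. For TEAD and AP-1 it was below 0 in 5 of 5 replicates, with an exact sign-flip p of 0.0625, the smallest that 5 pairs allow, and for SOX the exact sign-flip p was 0.75. The NRF1 motif, which did not pass the test in the positive sets, reached the same smallest value. Its difference was -0.65, below 0 in 5 of 5 replicates (exact sign-flip p = 0.0625). Without replicate 3 the TEAD and AP-1 values were -1.37 and -0.94.

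**Figure D1:**
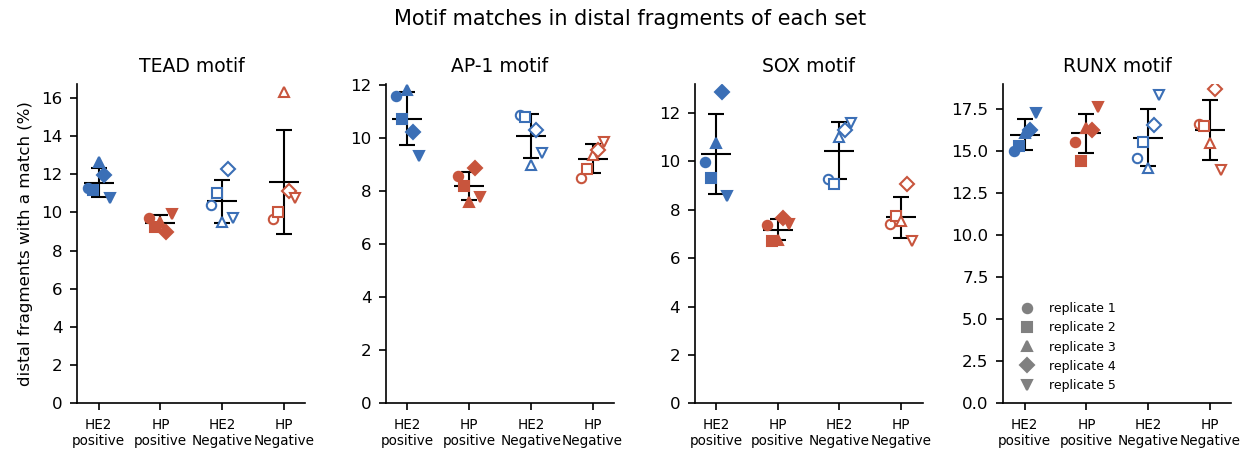
The percentage of distal fragments with a TEAD, AP-1, SOX or RUNX match in each set, with 1 point per set (shape, replicate; filled, positive; open, Negative) and the mean and SD as a bar. HP positive sets lie below every HE2 positive set for TEAD, AP-1 and SOX, the Negative sets show a like gap for SOX, and the RUNX shares overlap in both.

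The size of these differences moved with the fragments that were compared. Over the 18010 sites that were listed at both stages in any gate, a choice that itself depends on presence in the lists, the differences shrank to -0.75 percentage points for TEAD, -0.82 for AP-1 and -0.94 for SOX, and none passed the test (adjusted exact permutation p = 0.667, 0.582 and 0.582, n = 5). With High and Medium/High libraries alone, TEAD stood at -0.72 (adjusted exact permutation p = 0.585, n = 5 sets a stage), AP-1 at -2.44 (0.159) and SOX at -3.40 (0.0794). With fragments of 150 to 250 bp only, TEAD stood at -1.67 (adjusted exact permutation p = 0.159, n = 5), AP-1 at -2.74 (0.0794) and SOX at -2.18 (0.132). The calls were kept when each site was weighted equally, when only 1 fragment per start and per end was kept, with 40 to 60% GC fragments only and with fragments found in the plasmid lists only.

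**Figure D2:**
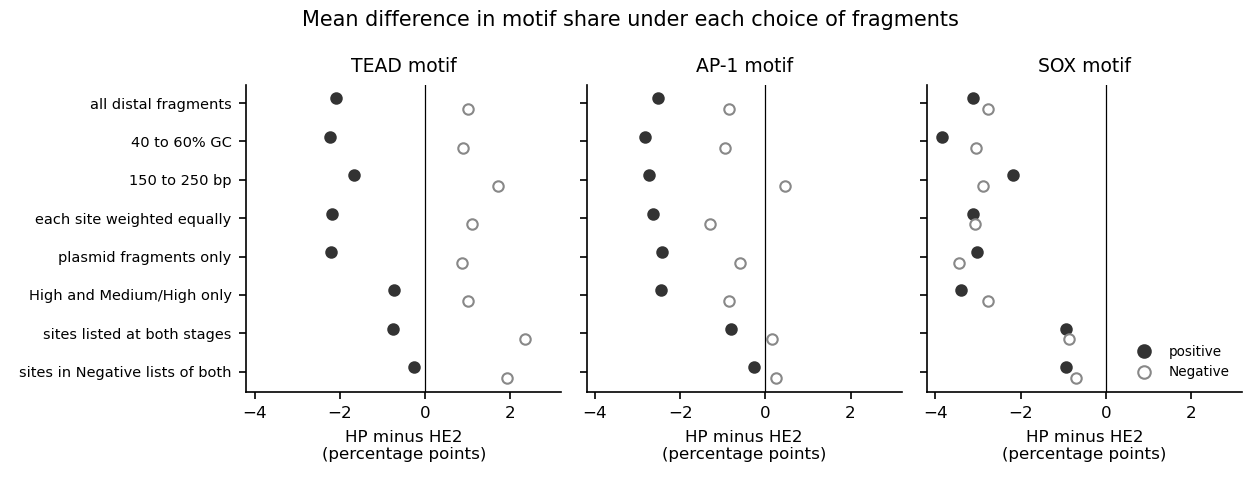
The mean difference in the share of fragments with a match, HP minus HE2 in percentage points, for TEAD, AP-1 and SOX under 8 choices of fragments (filled points, positive sets; open points, Negative sets; the vertical line is no difference). The positive points move towards 0 when sites listed at both stages, or in Negative lists of both, are compared.

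The vectors from which cells were made carried a similar gradient, with 1 list each and hence no test. Among fragments at the sites studied, the reporter vector (pSKB) list cloned from HE2 chromatin held the TEAD motif in 13.4%, AP-1 in 10.9% and SOX in 10.5%, and the list cloned from HP chromatin in 11.7%, 8.83% and 8.24%. The RUNX motif was in 19.4% of the former and 20.5% of the latter. Fragments from every stage's vector list occurred in both stages' sets, and those identical to the ES vector list made up 7.01% of HE2 and 22.5% of HP positive distal fragments. Per set this share was 6.52%, 10.0%, 1.95%, 7.13% and 7.55% in HE2 and 24.3%, 28.5%, 3.66%, 8.02% and 6.30% in HP. Without these fragments the motif differences were -2.0 for TEAD, -2.28 for AP-1 and -3.13 for SOX percentage points and kept their calls (adjusted exact permutation p = 0.0265, n = 5), and the part of the vectors' own content in the difference was not tested.

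No single distal site, gene locus or promoter passed the test between HE2 and HP. A gene locus here is the group of distal fragments within 100 kb whose nearest start is that of the gene, and a promoter is the group of promoter fragments within 2 kb of it. limma called 0 of 8467 sites, 0 of 6095 loci and 0 of 10587 promoters in the positive sets (percent called 0 in each, smallest adjusted p = 0.999). In simulated lists of the same sizes, this test called 2 of 96 sites and 17 of 94 promoters that were changed 4-fold. The 0 calls therefore do not show that features were unchanged. At an unadjusted p under 0.05, 46 sites (0.543%; 10 higher and 36 lower in HP), 29 loci (0.476%; 9 higher and 20 lower) and 110 promoters (1.04%; 31 higher and 79 lower) were counted. The Negative sets gave 0 calls, with 4 of 1890 sites (0.212%), 4 of 2479 loci (0.161%) and 17 of 6117 promoters (0.278%) under 0.05. The test of positive minus Negative differences gave 0 calls too, with 16 of 2507 sites (0.638%), 13 of 3117 loci (0.417%) and 55 of 7308 promoters (0.753%) under 0.05. Per 10000 fragments, the groups did not overlap at 5 promoters with HP lower (0.0472%) and 7 with HP higher (0.0661%), against 1 (0.0163%) and 4 (0.0654%) in the Negative sets. The features named from here on are given as values and not as changes, with the log2 difference of HP minus HE2 and its standard error (SE), and the adjusted p of each that was tested was 0.999 or higher in the positive sets.

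The promoters with the lowest unadjusted p among those lower in HP were in no HP library at all. The Sfi1 promoter (gene chr11:3131850-3193463, mm10), which belongs to a centrin-binding centrosome protein, held 115, 76, 13, 1 and 1 fragments in HE2 positive replicates 1 to 5 and 0 in all 5 HP sets (log2 difference -3.18, SE 0.847). Xpo1 (chr11:23256041-23298249), the main exporter of proteins from the nucleus, held 78, 55, 9, 3 and 0 against 0 throughout (-2.48, SE 0.795). Stk11 (chr10:80115803-80130682), the kinase LKB1, held 31, 22, 3, 1 and 1 against 0 throughout (-2.16, SE 0.742). For all 3 most HE2 fragments came from the large replicates, and HP was at 0 in each set. Per 10000 promoter fragments, 1 fragment was worth 0.0758 in the HE2 positive set of replicate 1 and 9.53 in that of replicate 5. A fitted difference against 0 depends on the constant of 1 added before the log.

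P4hb (chr11:120560298-120573253), a protein disulfide isomerase, held 49, 38, 4, 0 and 1 HE2 fragments (-1.90, SE 0.688). Pwwp2a (chr11:43681998-43721491), a chromatin reader, held 65, 39, 2, 2 and 0 (-1.88, SE 0.685). Atp5g1 (chr11:96068852-96075670), a subunit of the mitochondrial ATP synthase, held 61, 31, 3, 1 and 0 (-1.70, SE 0.642). All 3 were at 0 in every HP set.

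The same promoters were absent from the HP Negative lists, although HE2 Negative cells carried them. Sfi1 held 24, 21, 1, 0 and 2 fragments in HE2 Negative replicates 1 to 5 and 0 in HP Negative (log2 difference -3.14, SE 1.07), and the positive minus Negative difference was 0.55 (SE 1.21). Xpo1 held 9 and 16, Stk11 8 and 8, P4hb 10 and 16 and Atp5g1 7 and 10 in HE2 Negative replicates 1 and 2, each with 0 in HP Negative. These promoters were thus missing from HP in both gates.

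Counted over all 19 libraries of a stage, 102 of the 3347 promoters with at least 30 HE2 fragments (3.05%) had 0 in HP, against 1 of 2580 (0.0388%) the other way, that of Ctc1, a telomere maintenance gene, with 31 HP fragments. Their HE2 fragments ranged from 30 to 271, with a median of 49. If its 0 came from sampling alone, Sfi1, with 271 of 292039 HE2 promoter fragments, would be at least 76.6-fold lower in the HP lists. A count of 0 among 247611 HP promoter fragments allows up to 0.121 per 10000 (3 fragments, counting error only, for lists of distinct fragments). By the same bound Xpo1 would be at least 50.3-fold and Stk11 at least 22.0-fold lower. The bound does not hold for a 0 that comes from the making of a list, which was not tested. These promoters were also picked for their 0, and the libraries summed here share fragments.

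Among the 102 were Atf4, the transcription factor of the integrated stress response (32 HE2 fragments), Eif4a3, a core protein of the exon junction complex (48), Psmc5, a proteasome ATPase (41), Map2k1, the kinase MEK1 (67), and Rrm2, a subunit of ribonucleotide reductase (35). Cpox (36), an enzyme of heme synthesis, Mafg (30), a small MAF protein that pairs with NF-E2 in blood cells, H2afx (39), a histone variant of the DNA damage response, and Suv39h2 (40), a histone H3 methyltransferase, were listed there too. These names were chosen after their values were seen. Each of those named here was at 0 in HB as well as in HP.

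Of the 102 promoters, 100 were at 0 in all HB libraries as well, whereas 102 were listed in HE1 and 99 in ES. Over all 3347 promoters, 106 were at 0 in HB, 1 in HE1 and 14 in ES. Each of the 102 was present in the reporter vector list cloned from HP chromatin, with a median of 73 fragments against 68 at the other 3245 promoters, and 656 at Sfi1, 278 at Xpo1 and 102 at Stk11. In HP, 1 of the 102 overlapped any listed fragment and 12 had 1 within 10 kb, and the median distance to the nearest HP fragment was 23904 bp. They lay unevenly on the chromosomes, 26 of 428 on 11, 16 of 197 on 9 and 12 of 142 on 15, against 0 of 206 on 4, 0 of 206 on 5 and 0 of 211 on 8. With replicates 1 and 2 alone, limma called 90 of 12878 promoters, all of them lower in HP and 89 of them in no HP list of any gate. The same fit, with 2 sets a stage, called 0 sites and 0 loci in the positive sets. In the Negative sets it called 1339 of 8403 sites (649 higher and 690 lower), 429 of 5725 loci (215 and 214) and 0 promoters. Whether these gaps come from cells or from the making of the lists was not tested.

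**Figure D3:**
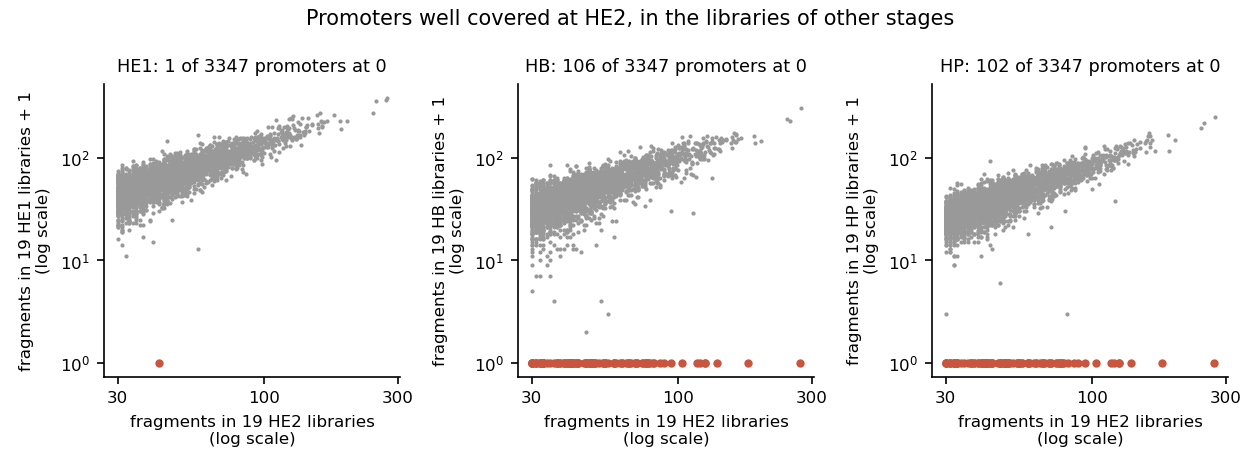
Fragments of the 3347 promoters with at least 30 fragments in the HE2 libraries (horizontal, log scale) against their fragments plus 1 in the libraries of HE1, HB and HP (vertical, log scale), with promoters at 0 in red. At 0 were 1 promoter in HE1, 106 in HB and 102 in HP, also among promoters with over 100 HE2 fragments.

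Distal sites had gaps of the same kind: 24 of 403 sites with at least 30 HE2 fragments (5.96%) had 0 in HP, 21 of them also 0 in HB and 24 listed in HE1, against 1 of 269 (0.372%) the other way. When sites, loci and promoters absent from either stage were left out, a choice made after seeing the data, unadjusted p under 0.05 was reached by 14 of 8435 sites (9 higher and 5 lower in HP), 22 of 6088 loci (9 and 13) and 58 of 10535 promoters (31 and 27), with 0 called by limma. Lower promoters then no longer outnumbered higher ones, but this choice itself removes the features at 0 in all lists of a stage. Features at 0 in HP can only count as lower, so the more even split follows in part from the choice and is no separate result.

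Sites gained in HP (at least 2 HP positive sets and 0 HE2 positive sets) and sites lost (the reverse) were counted at equal fragment numbers. Over 20 draws there were 1997 sites gained and 2814 lost, 431 loci gained and 476 lost, and 243 promoters gained and 387 lost on average. With all 4 kinds of set at the same size, positive sets gave 1123 (SD over draws 26.8) sites gained and 1200 (24.7) lost, and Negative sets 1036 gained and 1001 lost. For promoters positive sets gave 484 gained and 572 lost, and Negative sets 438 and 569. Turnover in the positive lists was thus near that in the Negative lists, where no reporter activity was selected. Of the sites in at least 1 HE2 positive draw 60.8% were in HP as well, and of those in HP 65.3% were in HE2, whereas promoters were shared at 94.4% and 95%.

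In the full lists 1727 sites were gained (4.79% of 36028) and 4799 lost (13.3%), 346 loci gained (3.1% of 11179) and 777 lost (6.95%), and 204 promoters gained (1.51% of 13533) and 482 lost (3.56%). The HE2 set was the larger in each of replicates 1 to 3, and these counts move with size. The Negative lists gave 1140 sites gained (5.77%) and 1052 lost (5.33%), 471 loci gained (5.49%) and 419 lost (4.88%), and 510 promoters gained (4.15%) and 501 lost (4.07%).

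Few of the lost features were found in the Negative list of the other stage. Of the lost sites 5.71% (274) and of the lost promoters 7.05% (34) were in an HP Negative set, against 57.6% and 87.0% of sites and promoters found in both positive lists. Of the gained sites 8.16% (141) and of the gained promoters 7.35% (15) were in an HE2 Negative set, against 54.7% and 85.2%. In the Negative list of their own stage, lost sites were found at 43.1% and lost promoters at 69.1%, gained ones at 37.9% and 50%. A feature missing from the positive list of a stage was thus mostly missing from that stage's Negative list too, and the lists alone cannot tell a silent fragment from one that was not sampled.

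The few found in a Negative list of the other stage included the promoter of Serpini1, the protease inhibitor neuroserpin. It held 12, 6, 2, 0 and 0 fragments in HE2 positive sets, 0 in HP positive sets and 1 and 1 in HP Negative replicates 1 and 2. The locus of Tgfbr3, a TGF-beta co-receptor, held 6, 3, 1, 0 and 0 in HE2 positive sets and 1 and 2 in HP Negative replicates 1 and 2. The locus of Itgav, an integrin of vessels, held 8 and 7 in HE2 positive replicates 1 and 2 and 1 and 1 in HP Negative. The locus of Ets2 went the other way, with 4 and 3 in HP positive and 1 and 1 in HE2 Negative replicates 1 and 2. At none of these did a Negative set of the other stage hold more than 2 fragments. Each was in a Negative set of its own stage too. HE2 Negative sets held Serpini1 with 4 and 3 fragments (replicates 1 and 2), Tgfbr3 with 2 (replicate 2) and Itgav with 2 (replicate 1). Ets2 had 2 in HP Negative replicate 1.

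**Figure D4:**
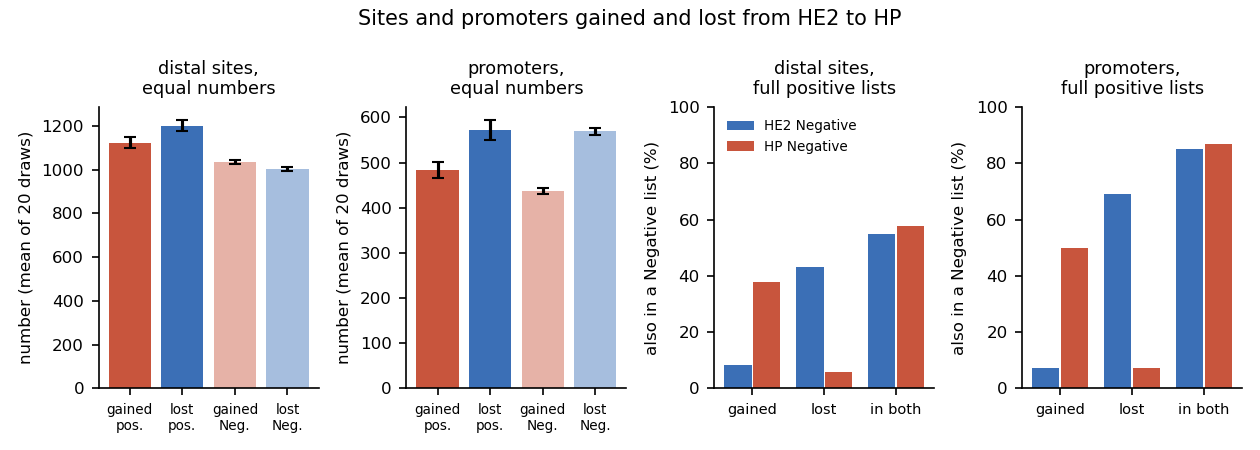
Left, the number of distal sites and promoters gained (red) and lost (blue) from HE2 to HP in positive and Negative (pale) sets at equal fragment numbers, as the mean and SD of 20 draws. Right, the percentage of gained, lost and shared features of the full positive lists that were also in a Negative list of HE2 (blue) or HP (red), which is under 10% for features looked up in the stage that lacked them.

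The fragments of lost sites carried the 3 motifs more often than those of gained or shared sites, given as a description, since the sites were chosen from the same lists. AP-1 was in 17.1% of fragments of the 4799 lost sites, 5.51% of those of the 1727 gained sites and 9.48% of those of 7706 sites in at least 2 sets of each stage. SOX was in 16.4%, 6.68% and 7.47%, and TEAD in 15.4%, 8.09% and 10.3%. RUNX was in 14.3%, 16.7% and 13.9%. Lost sites lay further out, with 32.2% of the sites over 50 kb from a start against 20.0% of gained and of shared sites. Their fragments had a mean GC content of 52.5% against 54.7% and 57.4%.

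Fragments of lost and gained sites are printed next, 2 of each kind from the 5 that were listed in most sets, in mm10 on the plus strand. The lost sites lie 3836 bp from the start of Egfl7, which encodes a factor secreted by endothelium (chr2:26576185-26576310), and 9729 bp from that of Cln6, an endoplasmic reticulum protein (chr9:62828924-62829094). The gained sites lie 5329 bp from the start of Kdm6b, a histone H3 lysine demethylase (chr11:69418790-69418990), and 4189 bp from that of Bicra, a subunit of a BAF chromatin remodelling complex (chr7:16052028-16052114). All 4 are intergenic. None of the 4 fragments holds a TEAD, AP-1 or SOX match, so no letters are in capitals.
Egfl7 lost: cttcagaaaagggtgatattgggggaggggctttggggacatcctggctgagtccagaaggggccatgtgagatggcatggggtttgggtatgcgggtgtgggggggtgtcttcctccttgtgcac
Cln6 lost: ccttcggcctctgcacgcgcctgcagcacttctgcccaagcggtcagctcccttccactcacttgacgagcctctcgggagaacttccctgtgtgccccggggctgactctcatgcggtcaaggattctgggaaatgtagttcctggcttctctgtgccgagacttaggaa
Kdm6b gained: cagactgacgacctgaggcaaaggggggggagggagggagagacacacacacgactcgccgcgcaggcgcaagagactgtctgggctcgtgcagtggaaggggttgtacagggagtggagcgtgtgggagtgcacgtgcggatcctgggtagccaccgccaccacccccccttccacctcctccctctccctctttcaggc
Bicra gained: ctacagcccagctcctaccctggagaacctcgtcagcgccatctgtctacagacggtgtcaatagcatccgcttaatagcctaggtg

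The Egfl7 site held 22, 11, 1, 1 and 0 fragments in HE2 positive sets and 0 in HP (log2 difference -1.67, SE 0.802). The Cln6 site held 21, 15, 2, 0 and 1 against 0 (-1.88, SE 0.903). Both also had HE2 Negative fragments, 4 and 1 at the former and 3 and 6 at the latter in replicates 1 and 2, and 0 in HP Negative. A site 55877 bp from Ezh2, the catalytic subunit of Polycomb complex PRC2, held 17, 14, 3, 0 and 1 against 0, and an intronic site of Trak1, an adaptor for mitochondrial transport, 18, 12, 1, 0 and 1 against 0. At each of the 4 lost sites most fragments came from the 2 large replicates. Over all libraries of a stage, the 4 were at 0 in HB as well as in HP. HE1 libraries held 63 fragments at the Egfl7 site, 85 at Cln6, 51 at Ezh2 and 30 at Trak1. They are thus among the gaps in HP and HB described above, whose cause was not tested. Counts do not compare across replicates, since 1 fragment was worth 0.141 per 10000 in the HE2 positive set of replicate 1 and 19.9 in that of replicate 5.

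The Kdm6b site held 29, 9, 0, 1 and 0 fragments in HP positive sets and 0 in HE2. It held 7, 7, 0, 2 and 0 in HP Negative sets as well, 0 in HE2 Negative, and none in any other stage. The Bicra site held 10, 5, 0, 1 and 0 in HP positive and 2, 2, 0, 2 and 0 in HP Negative sets, and 0 in HE2. A site 9977 bp from Tac4 (chr11:95251095-95252010), a tachykinin gene, held 4, 3, 1, 0 and 1 against 0 (1.51, SE 0.724). An intronic site of Scarb1, a lipoprotein receptor, held 8, 2, 1, 0 and 0 against 0, and was not tested for want of sets. The gained sites, like the lost ones, thus appeared in the Negative sets of the stage that listed them, except at Scarb1, with 0 there.

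Promoters gained were thinly listed. Kifc2, a kinesin gene, held 12, 1, 0, 0 and 1 fragments in HP positive sets, Cntnap1, a contactin-associated protein of axons, 10, 1, 0, 0 and 1, and Tubg2, a gamma-tubulin, 5, 1, 1, 0 and 0, each with 0 in HE2. Sf3a2, a splicing factor, held 2, 3, 0, 0 and 1. All of them were in too few sets to be tested, and all were found in HP Negative sets too.

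At gene loci, that of Trak1 stood lowest, with 36, 25, 1, 1 and 3 distal fragments in HE2 and 4, 0, 0, 0 and 0 in HP positive sets (log2 difference -3.02, SE 1.10). Ankrd24 held 33, 10, 5, 0 and 1 against 0 (-2.12), and Plxnb2, a semaphorin receptor, 9, 5, 0, 1 and 1 against 0 (-2.13). On the other side Otx1, a homeobox gene of the nervous system, held 1, 0, 0, 0 and 0 in HE2 and 7, 6, 0, 1 and 1 in HP (1.52, SE 0.676). Ret, a receptor tyrosine kinase, held 1, 0, 0, 0 and 0 against 2, 0, 1, 2 and 0 (1.72, SE 0.741). Counted per 10000 fragments, the Trak1 sets of HE2 lay between 1.85 and 59.6 and those of HP between 0 and 0.606, so that the groups did not overlap, as at 3 of the 6095 loci with HP lower (0.0492%). In HP replicates 3 to 5, which were at 0, 1 fragment was worth 14.64, 12.15 and 7.502. A level as low as 1.85 could not be seen there, so the gap depends on the set sizes. The groups overlapped at the other 4 loci.

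Among the regulators of the transition, the locus of Runx1 (chr16:92601466-92826149) held 42, 21, 5, 1 and 1 distal fragments in HE2 and 24, 7, 0, 0 and 1 in HP positive sets, a log2 difference of -1.97 (SE 1.13). In Negative sets it held 2, 6, 0, 1 and 0 in HE2 and 8, 3, 0, 1 and 0 in HP, and the positive minus Negative difference was -0.90 (SE 1.47). Its target Gfi1 held 16, 11, 0, 0 and 0 against 17, 5, 0, 0 and 0 (0.02, SE 0.615). The locus of Spi1, which encodes the myeloid factor PU.1, held 13, 10, 0, 0 and 0 against 19, 7, 0, 0 and 0 (0.17). Gata2 stood at -0.44, Tal1 at -0.91, Mecom at -0.99, Etv6 at -1.10, Fli1 at -0.05 and Erg at 0.25 on the same scale, all of them transcription factor genes of blood stem and progenitor cells, and Gfi1b had no distal fragment. Of 26 blood transcription factor loci tested, 9 were higher and 17 lower in HP (median -0.15), with 0 called.

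Endothelial loci gave the same picture. Cdh5, the VE-cadherin of vessel junctions, held 28, 17, 8, 0 and 0 distal fragments in HE2 and 22, 2, 0, 0 and 0 in HP positive sets (-0.88, SE 0.835). Its promoter held 8, 5, 0, 0 and 0 in HE2 and 0 in HP, which was too few to test. Kdr, a receptor for VEGF, held 31, 22, 3, 0 and 0 against 13, 1, 0, 1 and 1 (0.12, SE 0.983), and Egfl7 70, 35, 2, 1 and 0 against 42, 18, 0, 0 and 0 (-1.10). Vwf, the von Willebrand factor gene, was on the other side, with 5, 2, 0, 0 and 0 against 11, 5, 0, 1 and 1 (1.34, SE 0.756). Of 26 endothelial loci tested 9 were higher and 17 lower (median -0.14), against 3291 higher and 2804 lower of all 6095 (median 0.02), with 0 called in the list.

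Of the genes of the sorting markers, the Kit locus held 2, 5, 0, 0 and 0 distal fragments in HE2 and 3, 1, 0, 0 and 0 in HP (-0.06), and the Tek locus, the gene of TIE2, 7, 8, 0, 0 and 0 against 3, 1, 0, 0 and 0 (-0.27). The Itga2b locus, the gene of CD41, stood at 0.12. The Itga2b promoter held 21, 25, 2, 1 and 1 against 24, 7, 0, 0 and 0 (-1.47, SE 0.813). Neither the gene of the marker that separates the stages, Tek, nor the other marker genes passed the test.

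Loci of the factors whose motifs differed were not called. Of 21 AP-1, TEAD and Hippo loci tested 6 were higher and 15 lower in HP (median -0.16), and of 26 loci of endothelial transcription factors, SOXF and Notch genes 12 were higher and 14 lower (median -0.06). Bach2, a repressor that binds AP-1-like sites, held 58, 29, 3, 2 and 1 distal fragments in HE2 and 36, 16, 0, 0 and 0 in HP (-2.22, SE 1.12). Fos held 78, 41, 3, 0 and 1 against 76, 25, 1, 2 and 2 (1.17, SE 0.821), and Sox17, a SOXF gene, 22, 15, 4, 0 and 0 against 17, 11, 0, 0 and 0 (-0.29). Socs3, an inhibitor of cytokine signalling, held 75, 41, 8, 1 and 1 against 75, 22, 0, 0 and 2 (-1.66), the lowest of 18 loci of IL-3, IL-6 and VEGF signalling, of which 8 were higher and 10 lower. At all 4 the large replicates of both stages held fragments and no small set held more than 8.

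Of the remaining lists, 11 of 22 blood surface and effector loci, 10 of 19 TGF-beta and BMP loci, 10 of 12 cell cycle loci (median 0.19) and 17 of 20 ribosomal protein loci (median 0.14) were higher in HP. Loci of other cell types were 9 higher of 13 for cardiac and smooth muscle, 3 of 9 for neural and 4 of 9 for pluripotency genes. limma called 0 in every one of these lists. Cd93, a receptor of endothelium and early blood cells, stood lowest among the blood surface loci, with 7, 2, 2, 0 and 1 against 1, 0, 0, 0 and 0 (-1.32, SE 0.617).

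**Figure D5:**
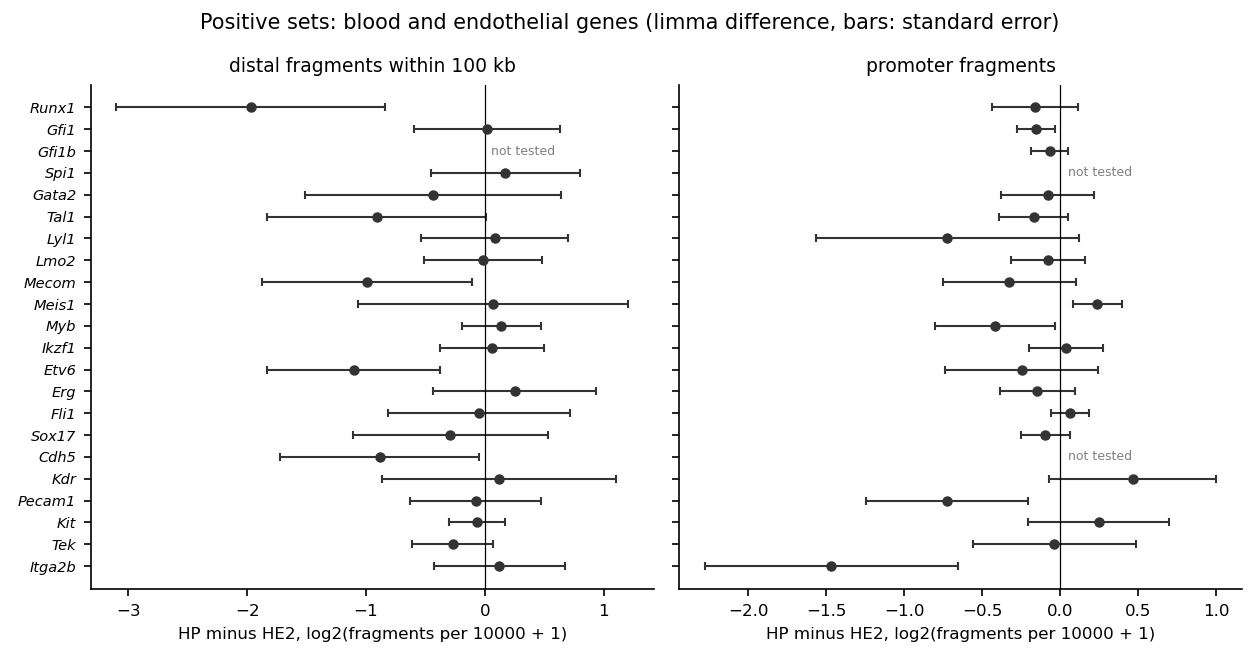
The limma difference between HP and HE2 positive sets, in log2(fragments per 10000 + 1), for the loci (left) and promoters (right) of blood and endothelial regulators, with the standard error as a bar and genes in too few sets marked as not tested. The bars are wide for genes listed in small sets, as at Runx1 (-1.97, SE 1.13), and no gene passed the adjusted test.

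The promoter that stood highest in HP was that of Tmem144, and its fragments in the small HP sets shared 1 end. It held 3, 2, 2, 0 and 0 fragments in HE2 and 4, 2, 9, 7 and 7 in HP positive sets, and 1, 1, 7, 8 and 0 in HP Negative sets (log2 difference 2.95, SE 0.842). In HP positive replicates 3 to 5 all of these fragments ended at the same base and began at a few bases spaced mostly 2 bp apart. Their starts fall in a run of 17 CT units, printed in capitals at the 5′ end of the longest of them (chr3:79843916-79844117, mm10, plus strand, within the gene).
Tmem144 fragment: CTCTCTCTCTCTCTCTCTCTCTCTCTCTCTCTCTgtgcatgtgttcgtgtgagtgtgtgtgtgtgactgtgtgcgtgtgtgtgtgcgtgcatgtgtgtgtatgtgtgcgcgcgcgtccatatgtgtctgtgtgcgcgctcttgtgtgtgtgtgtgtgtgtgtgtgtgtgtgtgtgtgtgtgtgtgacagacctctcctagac
With 1 fragment per start and per end the difference was 1.35, and with promoter fragments within 500 bp of a start only it was -0.11. The fragments counted as distinct in these sets thus differed in their start alone.

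Other promoters higher in HP at an unadjusted p under 0.05 were less unusual. Tssc4 held 31, 23, 5, 0 and 0 fragments in HE2 and 47, 16, 2, 2 and 4 in HP positive sets (1.89, SE 0.803), and its positive minus Negative difference was 2.81 (SE 1.25). Traf7, a ubiquitin ligase, held 34, 18, 1, 0 and 0 against 38, 17, 2, 1 and 3 (1.85, SE 0.845). Abca1, the cholesterol exporter, held 3, 1, 0, 0 and 0 against 8, 2, 1, 1 and 0 (1.22, SE 0.562). At Tssc4 and Traf7 both stages held fragments in the large replicates, and in replicates 4 and 5 only HP did.

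Measures of whole sets did not separate the stages after adjustment (percent called 0 of 8). Distal fragments were 194 ± 22 bp long in HE2 and 171 ± 24 bp in HP (median per set; exact permutation p = 0.143, n = 5), and their GC content was 55.5% and 56.2%, higher in HP in 5 of 5 replicates (exact permutation p = 0.087, adjusted 0.571). Distal fragments made up 32.1% of HE2 and 31.2% of HP sets, and 20.6% and 19% of distal fragments lay over 50 kb from a start. The number of sites shared by sets of different replicates, over the number expected of independent sets, was higher within a stage than between stages by 0.18 on the log2 scale (exact permutation p = 0.0625 over 32 swaps of the stage labels within replicates, the smallest possible), and by 0.10 in the Negative lists. With at least 2 fragments per site it was 0.0508 in the positive lists (exact permutation p = 0.75) and 0.17 in the Negative lists (exact permutation p = 0.375).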

How the data were processed

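The deposited files are lists of genomic intervals (mm10), 1 distal and 1 promoter list per library, with no score, fold or percent column. Per the labels and the study's methods, the authors trimmed paired reads (Trim Galore), aligned them (Bowtie2, SAMtools), kept unique fragments, removed those of an HM-1 control, kept fragments also seen in the cloned plasmids and within ATAC peaks, and split them by distance to a start (bedtools, HOMER). Of the listed fragments, 80.5% matched a fragment of the plasmid lists at both ends. Tool versions other than that of Bowtie2, and which stage's peaks were used, are not given in the sources used here. PCR of 25 to 30 cycles without molecular identifiers preceded sequencing, so a list holds no abundance.

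Positive libraries were united per stage and replicate. Overlapping distal fragments were merged into sites, and genes were assigned from the nearest protein-coding start (GENCODE vM21). Values are the expected log2(fragments per 10000 + 1) after a draw to the smaller set of the same replicate number. Features listed in at least 4 of 10 sets (8 of 20 for positive minus Negative) were fitted with limma 3.58.1 (lmFit, eBayes with trend, R 4.3.3) and adjusted by Benjamini-Hochberg over all features. Set measures and motif shares were tested by exact two-sided permutation (252 splits) and sign flips (32), adjusted within each family, in Python 3.11.15. Motif letters were searched on both strands in the GRCm38 sequence from NCBI RefSeq. The limma step was tested on simulated lists, with sampling as the only spread between sets and changes put on well-listed features. Of 4-fold changes it called 2 of 96 at sites and 17 of 94 at promoters. Of 16-fold changes it called 93 of 104 and 106 of 106. Replicate numbers were not used as a block, since deviations of same-numbered positive sets correlated by only 0.07 in replicate 3 (sites; highest 0.30). In the Negative sets every pair was above 0.1 for sites (lowest 0.185) and loci (0.117), and the block changed no call there. Named features are the 5 lowest unadjusted p-values per direction, the 5 features gained and the 5 lost in most sets, a fixed set of regulators and markers, and the extremes of each gene list; others are marked as chosen after their values were seen. The members, lists and tests were chosen with earlier results of these data known. Alternatives covered the filter, the replicates used, gates, plasmid matching, site width, distances and fragment properties, some of them added after seeing the data.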

Additional observations from a re-analysis of the deposited data

Results flagged for a closer look

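Across 72 groups of 5 sets examined, 12 sets stood apart from the other 4 of their group, by a gap over the range above the critical value of 0.71; chance marks about 1 in 20 such groups. The HP Negative set of replicate 3, with 490 distal fragments, accounted for 8 of them. Its distal fragments had a median length of 321.5 bp, against 153 to 214 bp in the other HP Negative sets. Keeping 1 fragment per start and per end removed 26.7% of its distal fragments. In it the TEAD motif was found in 16.3% of distal fragments, the E-box in 23.1% and the CTCF motif in 17.8%. Its GC content was 57.6%, its intronic share 36.9% and its share beyond 50 kb 16.9%, and a draw gave 171 sites and 432 promoters. The TEAD difference of the Negative sets turned from 1.00 to -0.45 percentage points without replicate 3.

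The HE2 positive set of replicate 4 gave 445 sites and 865 promoters per draw, fewer than the other 4 HE2 sets (484 to 493 sites and 945 to 960 promoters). Libraries of replicate 4 shared up to 49.3% of their fragments. The HE2 positive set of replicate 5 had an intronic share of 41.2%, and the HE2 Negative set of replicate 3 a distal share of 27.8%.

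In data outside the comparison of sorted sets, the reporter vector list cloned from HP chromatin held fragments of all 102 promoters that were in no HP library and well listed in HE2. The vector lists of the other stages held them too, with medians of 53.5 (ES), 84 (HB), 90.5 (HE1) and 90.5 (HE2) fragments against 73 in the HP list. The cause of their absence from the HP and HB libraries was not tested.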

How the results depend on the processing

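Of 803 comparisons with alternative processing, 720 were labelled the same. For a value with a test this meant the same direction and side of the threshold. For numbers of calls and of gained or lost features it meant only an equal or similar number. The number of calls by limma was 0 for sites, loci and promoters in positive sets, Negative sets and their difference under most alternatives. Without a filter on sets, 1 distal site was called in positive sets. With array weights, 2 Negative loci were called. With replicates 1 and 2 only, the count was 90 of 12878 positive promoters, all lower in HP and 89 of them in no HP list. It was 1339 of 8403 Negative sites and 429 of 5725 Negative loci, with higher and lower calls in near equal numbers. The log2 differences of Sfi1 (-3.29), Xpo1 (-2.84), Stk11 (-1.78), P4hb (-2.34) and Pwwp2a (-2.52) then passed the threshold, while that of the Sntb1 promoter turned to -0.19. The Tmem144 promoter turned to -0.11 within 500 bp of a start. Apart from the construction of these alternatives (fewer sets, more features or a narrower window), the cause was not tested.

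Taking the replicate number as a block left 0 calls by limma and kept the motif differences at -2.09 percentage points (TEAD), -2.53 (AP-1) and -3.12 (SOX), with an adjusted exact permutation p of 0.125, since 5 pairs do not allow a smaller p than 0.0625 before adjustment. In 8 of 10 positive sets the site values correlated best with the set of the same number. Leaving out 1 replicate at a time gave -2.40 to -1.82 for TEAD, -2.82 to -2.11 for AP-1 and -3.61 to -2.59 for SOX, with an adjusted exact permutation p of 0.0952 (0.0286 before adjustment, the smallest that 4 against 4 sets allow). The other values that moved across 0 in this way ranged from -0.0574 to 0.302 for RUNX, -0.81 to 0.73 for the intronic share, -0.68 to 0.35 for the exonic share and -0.45 to 1.53 for the Negative TEAD share.

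When the Low and Medium gates were left out (High and Medium/High alone), the differences were -0.72 (TEAD), -2.44 (AP-1), -3.40 (SOX) and -0.42 (RUNX), and 1.05 for the distal share. With fragments of 150 to 250 bp they were -1.67 (TEAD), -2.74 (AP-1), -2.18 (SOX), 0.0414 (ETS), 0.99 (GATA) and 0.45 (Negative AP-1). Over sites listed at both stages they were -0.75 (TEAD), -0.82 (AP-1), -0.94 (SOX), -0.68 (KLF/SP) and 0.15 (Negative AP-1). Over the 6933 sites in Negative lists of both stages they were -0.27 (TEAD), -0.27 (AP-1), -0.94 (SOX), -0.47 (RUNX), 0.18 (ETS), -0.0104 (KLF/SP) and 0.25 (Negative AP-1). With plasmid fragments only, the E-box passed the threshold at -2.04, RUNX stood at -0.23, the intronic share at -0.81 and the exonic share at 0.14. With fragments summed over gates, RUNX stood at -0.10, the intronic share at -0.13 and the number of sites per draw at 2.71. With 1 fragment per start and per end, RUNX stood at -0.14. These alternatives on length, sites and fragment ends were chosen after seeing the data.

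Gained and lost sites numbered 8413.65 and 10208.7 on average where 1 set was enough and 56.7 and 133.45 where 3 were needed. Loci numbered 1354.6 and 1365.85, and 11.45 and 32.75. Promoters numbered 635.1 and 713.6, and 8.15 and 87.55. In the full lists 4799 sites and 777 loci were lost. With at least 2 fragments per promoter, the difference in sharing within and between stages turned to -0.0388 in positive and -0.19 in Negative sets. Depth limits the small sets most: in the HP positive set of replicate 3 a single fragment was worth 14.6 per 10000, and a feature absent from a short list may be unsampled.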

Other observations

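The gaps ran mostly in 1 direction. Ctc1 was the only promoter with at least 30 HP fragments and 0 in the HE2 libraries; its fragments numbered 65 in HE1, 35 in ES, 31 in HP and 29 in HB. The only such site lay near Kdm6b, with 57 HP fragments over all gates and 0 in the other stages. The reporter vector lists held 1302237 distinct fragments for HP and 1664530 for HE2.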
